A study of Mus musculus with 24 samples.

Results

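Solute carriers are membrane proteins that move amino acids, sugars, ions, metals, nucleosides, vitamins and lipids across the plasma membrane and the membranes of organelles. The 137 genes described here were chosen by their detection p-values: they are those whose symbol has the form Slc, a family number, the letter a and a member number, and that had a probe above background (detection p under 0.01, where a low value means that the signal exceeds that of the negative control beads) on all 3 arrays of at least 1 of the 3 groups of hybridization 1. The arrays carried probes for 301 such genes among 18312 genes in all, and 143 of the 301 passed the detection rule. 8 genes named in advance (Slc39a12, Slc7a11, Slc7a3, Slc2a1, Slc2a3, Slc16a1, Slc16a3 and Slc46a3) were left out, and 6 of these passed the rule. By name, 134 of the 137 are carriers. The other 3 match the pattern but are not transporters, namely the adaptor protein Slc4a1ap and the scaffold proteins Slc9a3r1 and Slc9a3r2. Each gene is followed through all groups by 1 probe, that with the highest mean signal in hybridization 1.

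The study used glial progenitors grown from mouse embryonic stem cells, in which 1 allele of Dgcr8 was deleted and the other was conditional (flox/delta). The Dgcr8 protein works with the enzyme Drosha to release microRNA precursors from their primary transcripts. Hybridization 1 held 3 arrays each of undifferentiated flox/delta cells kept in N2 medium with EGF and FGF, of flox/delta cells differentiated by removing both factors and adding B27 and 1% serum, and of undifferentiated knockout (delta/delta) cells, which the labels also call mock. Hybridizations 2 and 3 held knockout cells given a mock treatment (4 arrays), let-7 (3 arrays) or miR-125 (3 arrays), and 1 mock and 1 let-7 array formed hybridization 2. The labels list tamoxifen, given at 1 µM and then at 100 nM for 16 h each, as a treatment of the knockout arrays and not of the flox/delta arrays, so tamoxifen and the loss of Dgcr8 cannot be told apart. All groups share the deleted Dgcr8 allele, and the labels do not say how many cell lines were used or, for hybridization 1, whether the replicates were separate cultures. The p-values there measure the spread between these arrays, which may be technical.

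Astrocytes depend on carriers for several of their known tasks. Sodium-driven transporters of the Slc1 and Slc6 families take up glutamate, GABA and glycine released by neurons. Carriers for glutamine, bicarbonate, calcium, lactate and glucose support the metabolism and ion balance of the tissue, and mitochondrial carriers of family Slc25 exchange metabolites across the inner mitochondrial membrane. A microRNA represses messenger RNAs mainly through pairing of its seed, bases 2 to 8, with sites in their 3′ ends. The mature sequences are shown because the 2 microRNA treatments differ in this seed. They are the RefSeq sequences (GRCm38.p6), with the seed in capitals, and the labels do not say which family member was given:
let-7a-5p: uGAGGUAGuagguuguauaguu
miR-125a-5p: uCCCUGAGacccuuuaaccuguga
miR-125b-5p: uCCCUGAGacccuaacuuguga
The seed GAGGUAG was shared by 9 mature let-7 sequences of the table, let-7j carried GAGGUAU, and both miR-125 sequences carried CCCUGAG.

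Mean raw signal was 298 to 474 in hybridization 1, 1429 to 1523 in hybridization 2 and 756 to 868 in hybridization 3, and on each array 123 to 134 of the 137 members were above background (detection p under 0.05). Levels below are log2 signals after background correction and quantile normalization, 9 arrays together for hybridization 1 and 10 together for hybridizations 2 and 3, and levels of these 2 sets are not compared. The Dgcr8 probe was lower by 0.52 on the log2 scale in the knockout (log2 difference -0.52 ± 0.13 SE, limma adjusted p = 0.00468), and the sources used here do not say whether it lies in the deleted part. The astrocyte marker Gfap was not above background on any undifferentiated or knockout array. The summed level of 5 astrocyte markers was 11.7 to 11.9 in undifferentiated, 14.2 to 14.4 in differentiated and 11.4 in knockout cells. Of 6 glial progenitor markers, 5 were above background on all arrays of each of these groups. They summed to 13.80 to 13.85 in undifferentiated, 13.85 to 13.91 in differentiated and 13.97 to 13.99 in knockout cells. Markers of other cells moved as well: the summed level of 4 oligodendrocyte genes was 7.62 to 8.02 in undifferentiated, 10.01 to 10.56 in differentiated and 6.29 to 6.32 in knockout cells, where all 4 (Mbp, Mog, Mag and Cldn11) were not above background. Fibroblast and smooth muscle markers summed to 6.65 to 6.74 before and 7.46 to 7.70 after differentiation and 6.71 to 6.87 in the knockout. Of 5 pluripotency markers, 4 were above background on all undifferentiated, 3 on all differentiated and 1 on all knockout arrays, and their summed level was 7.41 to 9.42, 7.04 to 8.21 and 7.68 to 8.37. Of 5 neuronal markers, 3 were above background on all arrays of each of these groups. Their summed level was 12.1 to 12.3 in undifferentiated, 12.3 to 12.4 in differentiated and 11.9 to 12.3 in knockout cells. None of 4 microglial genes was above background on any array of hybridization 1. Of 4 endothelial genes, 1 was above background on all knockout arrays and none on any flox/delta array. The part of such cells in the differences below was not tested, and in these bulk samples fewer cells of a type and less RNA per cell cannot be told apart.

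Most members were present in every group. Of the 137 genes, 104 were detected on all arrays of all 3 groups of hybridization 1. Another 14 met the rule in differentiated cells alone, 4 in knockout cells alone (Slc12a7, Slc20a1, Slc40a1 and Slc6a13) and 2 in undifferentiated flox/delta cells alone (Slc13a3 and Slc13a4). A further 7 met it in both flox/delta groups but not in the knockout (Slc12a4, Slc16a13, Slc1a1, Slc1a2, Slc25a42, Slc30a10 and Slc44a1), 4 in both undifferentiated groups (Slc10a7, Slc25a32, Slc2a9 and Slc39a10), and 2 in differentiated and knockout cells (Slc16a6 and Slc27a4). Just inside the threshold lay Slc13a4, Slc1a6 and Slc6a13, whose highest detection p in their best group was 0.00752. Just outside it lay Slc7a6os at 0.0125, Slc22a4 at 0.0163, and Slc17a8 and Slc25a22 at 0.0175. Because a gene that entered through 1 group had to differ from a group in which it is at background, the counts for differentiation and knockout are led by those over members detected on all arrays of both groups compared, and other members are described by their levels.

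During differentiation, carriers moved in both directions and more often upward. Among 111 members detected in both groups, 45 rose and 21 fell (limma, adjusted p under 0.05), 66 in all or 59.5%. Among all 7266 genes detected in both groups, 59% passed, 28.8% higher and 30.1% lower, so the share of members that passed was near the background while the split was 40.5% higher and 18.9% lower. The median log2 difference of these members was 0.16, against -0.02 for all genes detected in both groups. Over every member with a test, including those that entered through 1 group, 59 were higher and 27 lower of 133 (64.7%, all genes 57.5%), which the detection rule itself partly fixed and which is given as a description.

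**Figure D1:**
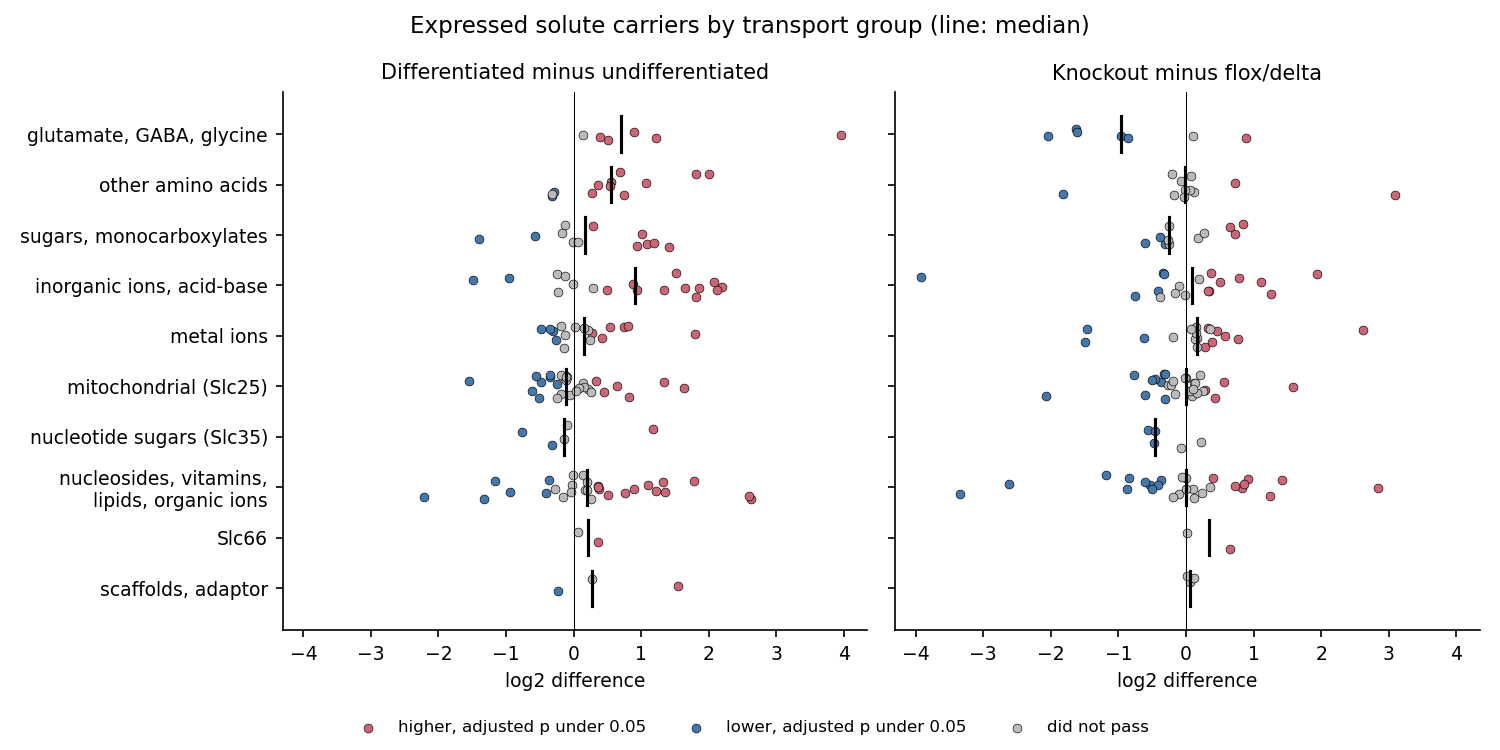
Log2 differences of all tested members (x axis, log2 units) by transport group (y axis) for differentiation (left) and knockout (right). Each point is 1 gene, red for higher and blue for lower at adjusted p under 0.05, grey where the test was not passed, and the black line is the group median. Glutamate, GABA and glycine transporters lie to the right on the left panel and mostly to the left on the right panel, while mitochondrial carriers centre near 0 on both. Slc1a1 and Slc1a2 met the detection rule only in flox/delta cells, which partly fixed their place on the right panel. Both panels share the undifferentiated flox/delta arrays, so their opposition is not read as a result.

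All 5 transporters of glutamate, GABA or glycine that were detected before and after differentiation rose, with a median log2 difference of 0.90. Among all genes detected in both groups 28.8% were higher and 30.1% lower. With so few genes per transport group, nothing is read from this split or from those below. Slc1a1, the glutamate transporter EAAC1 (EAAT3), rose most of all members. Its log2 signals were 6.29, 5.87 and 6.07 in undifferentiated cells, 10.06, 10.05 and 9.98 in differentiated cells, and 4.43, 4.46 and 4.44 in the knockout. The 3 groups do not overlap, and the rise was 3.95 ± 0.11 (SE, adjusted p = 9.47e-11), or 2.42 by another probe of the gene. The glycine transporter Slc6a9 (GlyT1) stood at 9.75, 9.59 and 9.66 before and at 10.88, 10.87 and 10.90 after differentiation, a rise of 1.22 ± 0.09 (adjusted p = 5.07e-07). Slc6a11, the GABA transporter GAT3, went from 7.26, 7.40 and 7.30 to 8.25, 8.22 and 8.17, a rise of 0.90 ± 0.10 (adjusted p = 1.52e-05).

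The 2 glutamate transporters best known from mature astrocytes rose less. Slc1a3 (GLAST) was already at 13.44, 13.45 and 13.40 in undifferentiated cells and reached 13.84, 13.80 and 13.84, a rise of 0.40 ± 0.08 (adjusted p = 0.00147). This call was lost under normexp correction with median scaling, where the difference was 0.25 (adjusted p = 0.249). Slc1a2 (GLT-1) went from 6.64, 6.56 and 6.38 to 6.80, 7.29 and 7.01, a rise of 0.51 ± 0.14 (adjusted p = 0.00795), or 0.26 by another probe of the gene. Slc1a6 (EAAT4), a transporter best known from Purkinje neurons, lay at 4.78 to 5.54 before and 5.02 to 5.45 after differentiation, and the groups overlap. Slc6a13 (GAT2) lay at 4.25 to 4.49 and 4.21 to 4.33, not above background in either flox/delta group.

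**Figure D2:**
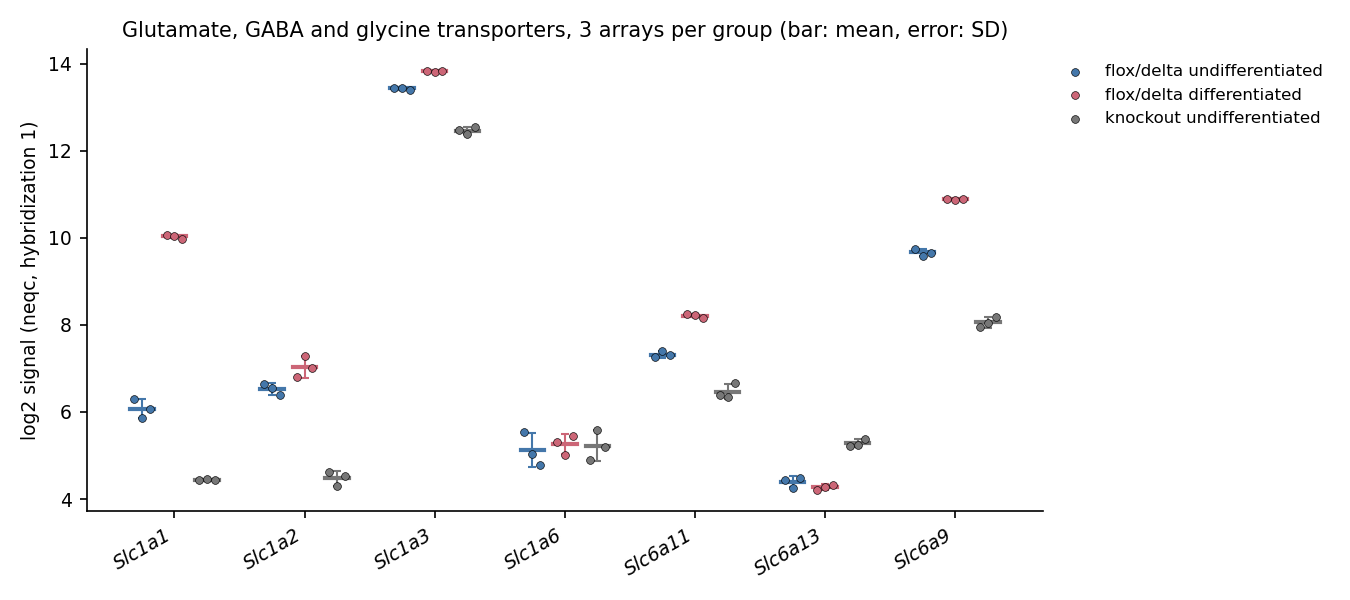
Log2 signal (y axis) of the 7 transporters of glutamate, GABA and glycine (x axis) on each of the 9 arrays of hybridization 1. Points are arrays, bars means and error lines SD over 3 arrays. Slc1a1 is near 10 in differentiated cells and 4.43 to 4.46 in the knockout, and Slc1a3, Slc6a9 and Slc6a11 are highest in differentiated and lowest in knockout cells.

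The start regions of 2 of these transporters are shown, from 250 bases before to 50 after the RefSeq start (GRCm38.p6). One is that of the member with the largest rise (Slc1a1, chr19:28834885-28835184, plus strand). The other is that of the member with the motif match (Slc1a3, chr15:8710758-8711057, minus strand, the match in capitals). Both strands were searched for the motif TTCNNNGAA of STAT factors and for that of nuclear factor I, TTGGC and GCCAA set 5 bases apart, 2 families of transcription factors known from astrocyte formation:
Slc1a1: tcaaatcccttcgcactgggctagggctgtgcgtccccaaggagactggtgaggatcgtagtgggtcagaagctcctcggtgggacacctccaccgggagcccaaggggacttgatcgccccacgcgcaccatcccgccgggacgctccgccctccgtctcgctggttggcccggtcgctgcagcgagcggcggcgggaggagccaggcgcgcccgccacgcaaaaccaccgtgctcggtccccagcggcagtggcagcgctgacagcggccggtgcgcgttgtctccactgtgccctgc
Slc1a3: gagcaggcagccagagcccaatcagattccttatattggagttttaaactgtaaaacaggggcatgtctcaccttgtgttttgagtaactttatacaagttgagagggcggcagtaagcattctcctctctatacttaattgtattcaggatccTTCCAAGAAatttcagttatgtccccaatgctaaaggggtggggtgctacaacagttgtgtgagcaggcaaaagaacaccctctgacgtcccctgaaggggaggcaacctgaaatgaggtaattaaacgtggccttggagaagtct
The STAT motif was found in 1 of 11 start regions of the 7 genes, that of Slc1a3, where its first base lies at -96 from the start. It occurred in 8.3% of all 32851 start regions and in 5 of the 148 regions (3.38%) of the 113 members that matched the table. The nuclear factor I motif was in none of the members' regions and in 0.0365% of all. A match of letters is a description and no evidence of binding.

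Of the other amino acid carriers 7 of 10 detected in both groups rose and 2 fell (70% and 20%, all genes 28.8% and 30.1%). Slc6a8, the creatine transporter, rose from 8.73, 8.83 and 8.90 to 10.64, 10.72 and 10.55, by 1.81 ± 0.09 (adjusted p = 9.36e-09). Slc7a5 (LAT1), the carrier of large neutral amino acids, rose from 11.53, 11.75 and 11.73 to 12.37, 12.37 and 12.34 (0.69 ± 0.09, adjusted p = 4.58e-05). Its partner subunit Slc3a2 was measured by a single dim probe, at 5.24, 5.14 and 4.98 before and 5.36, 5.94 and 5.70 after, and met the detection rule only in differentiated cells. Slc7a2, a carrier of arginine and lysine, was not above background in undifferentiated cells and stood at 6.47, 6.69 and 6.37 after differentiation, at least 3.41-fold higher. The 2 that fell, Slc38a2 and Slc38a7, did so by 0.32 and 0.29 on the log2 scale.

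Among ion carriers, 8 of 15 rose and 2 fell (53.3% and 13.3%, all genes 28.8% and 30.1%). Slc8a1 (NCX1), which exchanges sodium for calcium, rose from 6.34, 6.18 and 6.42 to 8.36, 8.38 and 8.59 (2.13 ± 0.10, adjusted p = 8.19e-09). Slc41a3, of a family of magnesium carriers, rose from 5.53, 5.25 and 5.68 to 7.35, 7.56 and 7.76 (2.07 ± 0.14, adjusted p = 1.92e-07). The anion exchanger Slc26a6 rose by 1.81 ± 0.15 (adjusted p = 1.47e-06), from 5.19 to 5.81 before to 7.10 to 7.49 after. Slc12a8 and Slc24a4 were not above background in undifferentiated cells, and lay at 6.52 to 6.75 and 6.15 to 6.48 after differentiation, at least 3.8-fold and 2.94-fold higher. The opposite was seen for Slc12a2 (NKCC1), which carries sodium, potassium and chloride into cells. It fell from 11.46, 11.76 and 11.69 to 10.03, 10.21 and 10.19 (-1.49 ± 0.11, adjusted p = 2.72e-07), and the sodium-proton exchanger Slc9a7 fell by 0.95 (SE 0.13, adjusted p = 8.35e-05).

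Carriers of nucleosides, vitamins, lipids and organic ions were divided, with 8 of 20 higher and 3 lower (40% and 15%, all genes 28.8% and 30.1%). Slc22a23, an organic ion transporter family member whose substrate is not established, rose from 6.99, 7.06 and 7.09 to 9.78, 9.54 and 9.62 (2.60 ± 0.10, adjusted p = 1.32e-09). The urea transporter Slc14a1 was not above background in undifferentiated or knockout cells (4.15 to 4.27 and 4.19 to 4.26). It stood at 6.89, 6.73 and 6.89 in differentiated cells, at least 4.28-fold higher than in undifferentiated ones by this probe, while the log2 differences of the gene's other probes were 1.70 and 1.81. Slc29a1 (ENT1), the equilibrative nucleoside transporter, had the largest fall of all members, from 8.10, 8.22 and 8.55 to 6.65, 5.83 and 5.74 (-2.22 ± 0.22, adjusted p = 5.67e-06). The thiamine transporter Slc19a2 fell from a mean of 8.58 ± 0.11 (SD, n = 3) to 7.35, 7.09 and 7.32 (-1.33 ± 0.11, adjusted p = 1.04e-06). Slc13a3, a dicarboxylate carrier, lay at 5.97 to 6.14 before and 4.73 to 5.12 after differentiation, and Slc10a7 at 5.53 to 5.94 before and 4.65 to 4.90 after, and neither met the detection rule in differentiated cells.

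Carriers of intracellular membranes moved in both directions. Of 27 mitochondrial carriers 5 rose and 7 fell (18.5% and 25.9%, all genes 28.8% and 30.1%), with a median of -0.11. The largest fall was that of Slc25a25, a carrier of ATP-magnesium and phosphate, from 9.45, 9.70 and 9.76 to 8.15, 8.12 and 7.98 (-1.55 ± 0.10, adjusted p = 1.4e-07). Slc25a33, a mitochondrial carrier of pyrimidine nucleotides, rose by 1.63 ± 0.13 (adjusted p = 7.34e-07), and was added to the named genes after its values were seen. Slc25a32, a folate and FAD carrier, lay at 5.23 to 5.52 before and 4.66 to 4.77 after differentiation. Among 5 nucleotide sugar carriers of the Golgi, Slc35a2 for UDP-galactose, likewise added, rose by 1.18 ± 0.09 (adjusted p = 5.55e-07), and Slc35a1 for CMP-sialic acid fell by 0.76 (SE 0.11, adjusted p = 0.000111). Metal ion carriers gave 6 higher and 3 lower of 16 (37.5% and 18.8%). Sugar and monocarboxylate carriers gave 3 higher and 1 lower of 8 (37.5% and 12.5%). Slc2a9, a urate transporter of the glucose transporter family, lay at 5.86 to 6.04 before and 4.33 to 4.72 after.

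Loss of Dgcr8 was also accompanied by changes in both directions, here about evenly. Of 108 members detected in both undifferentiated groups, 28 were higher and 30 lower in the knockout, 58 in all or 53.7%, beside 57% of all 7229 genes detected in both (29.4% higher, 27.6% lower). The median of these members was 0.06, against 0.03 for all such genes. Over all 130 members with a test, 34 were higher and 39 lower (56.2%, all genes 55.1%). These arrays include the same undifferentiated flox/delta arrays as the differentiation comparison, so agreement or opposition between both sets of differences is not read as a result, and each is given on its own.

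The transporters of glutamate, GABA and glycine that were present in both groups, 3 of the 7, all fell in the knockout, beside 27.6% of all genes detected in both. Slc1a3 fell from 13.40 to 13.45 down to 12.47, 12.38 and 12.54 (-0.97 ± 0.08, adjusted p = 1.97e-06). Slc6a9 fell to 7.95, 8.03 and 8.19 (-1.61 ± 0.09, adjusted p = 8.21e-08), and Slc6a11 to 6.40, 6.34 and 6.66 (-0.86 ± 0.10, adjusted p = 2.86e-05). Slc1a2, at 4.63, 4.29 and 4.52 in the knockout, was not above background there and at least 3.4-fold lower than in flox/delta cells by this probe, while another probe gave a log2 difference of -1.70. Slc1a1 was likewise not above background in the knockout, at least 2.49-fold lower. Slc6a13 went the other way. It was above background in the knockout alone, at 5.22, 5.25 and 5.39, at least 1.46-fold higher, and Slc1a6 overlapped between the groups, at 4.89 to 5.59 in the knockout.

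The largest rise in the knockout was that of Slc6a6, the taurine transporter. Its signals were 8.08, 8.23 and 8.20 in flox/delta cells and 11.28, 11.28 and 11.22 in the knockout (3.09 ± 0.08, adjusted p = 2.9e-10). Slc22a23 stood at 9.84, 10.02 and 9.79, up by 2.83 ± 0.10 (adjusted p = 1.78e-09). Slc40a1 (ferroportin), the exporter of iron from cells, was not above background in undifferentiated flox/delta cells (4.51, 4.29 and 4.22). In the knockout it stood at 6.84, 7.10 and 6.94, at least 4.65-fold higher. The magnesium carrier Slc41a2 rose from 5.58, 5.86 and 5.64 to 7.73, 7.49 and 7.70 (1.95 ± 0.12, adjusted p = 2.07e-07), and the mitochondrial ATP-magnesium and phosphate carrier Slc25a24 from a mean of 6.05 ± 0.17 (SD, n = 3) to 7.65, 7.62 and 7.61 (1.58 ± 0.14, adjusted p = 2.32e-06).

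Smaller rises were measured for Slc10a3 (1.43 ± 0.12), for the thiamine transporter Slc19a2 (1.24 ± 0.11) and for Slc27a3, of the fatty acid transport protein family (0.92 ± 0.11), with adjusted p of 1.92e-06, 2.72e-06 and 2.76e-05. The potassium-chloride cotransporter Slc12a7 was above background in the knockout alone, at 5.67, 5.54 and 5.59, at least 1.81-fold higher. Slc20a1, a sodium-phosphate cotransporter, lay at 4.70 to 4.99 in flox/delta and 5.77 to 5.99 in knockout cells, without overlap, which the detection rule partly fixed.

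The largest fall was that of Slc24a3, which exchanges sodium for calcium and potassium. Its signals were 10.06, 9.41 and 9.57 in flox/delta cells, 11.56, 11.16 and 11.25 after differentiation and 5.62, 5.81 and 5.87 in the knockout (knockout difference -3.91 ± 0.17, adjusted p = 6.98e-09). Slc15a2 (PEPT2), a carrier of short peptides, fell from 8.10, 7.94 and 7.93 to 5.42, 5.49 and 5.22 (-2.61 ± 0.13, adjusted p = 3.23e-08). Slc38a3 (SNAT3), which carries glutamine, fell from a mean of 8.01 ± 0.02 (SD, n = 3) to 6.16, 6.35 and 6.06 (-1.82 ± 0.12, adjusted p = 3.32e-07). The zinc carrier Slc39a3 fell from 7.39, 7.03 and 7.35 to 5.86, 5.68 and 5.74 (-1.501 ± 0.11, adjusted p = 6.53e-07).

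Besides Slc1a1 and Slc1a2, 5 members were detected on all flox/delta arrays but did not meet the rule in the knockout. Slc44a1, a choline transporter, lay at 8.33, 8.26 and 7.96 in flox/delta and 4.67, 4.75 and 5.11 in knockout cells, a log2 difference of -3.34, while another probe of the gene gave -1.49. Slc25a42, a mitochondrial carrier of coenzyme A, lay at 6.43 to 7.29 and 4.50 to 5.07, and Slc30a10, which exports manganese, at a mean of 6.20 ± 0.30 and 4.74 ± 0.12 (SD, n = 3 each). The arrays of the groups do not overlap for these 3 genes, and the detection rule partly fixed the lower knockout levels of all 5 members. The potassium-chloride cotransporter Slc12a4 lay at 5.31 to 5.80 and 4.98 to 5.38, with overlap, and Slc16a13 at 5.25 to 5.58 and 5.09 to 5.23, without overlap. Of the LAT1 pair, Slc7a5 differed by -0.03 ± 0.09 (adjusted p = 0.819) in the knockout, and Slc3a2 lay at 4.74 to 5.17.

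**Figure D3:**
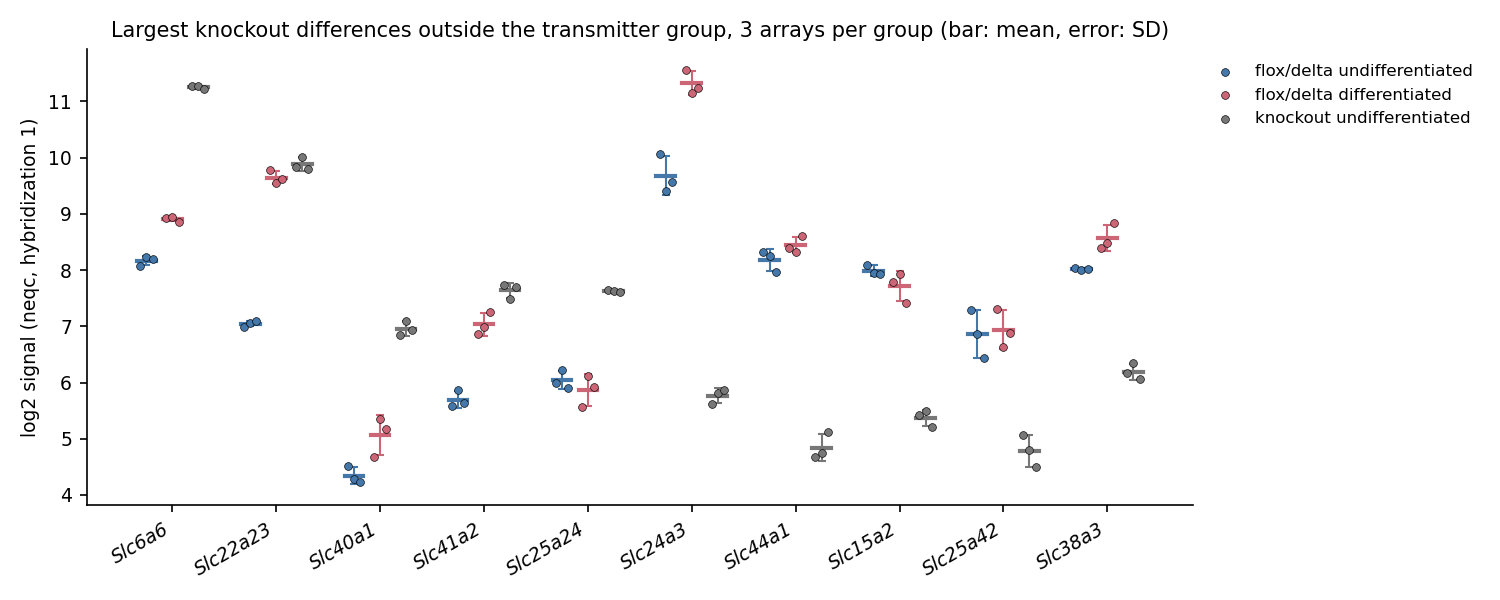
Log2 signal (y axis) of 10 members with the largest knockout differences outside the glutamate, GABA and glycine group (x axis) on the 9 arrays of hybridization 1. Points are arrays, bars means and error lines SD over 3 arrays. The 5 genes on the left are higher and the 5 on the right lower in knockout than in undifferentiated flox/delta cells. They were chosen by this difference, so the separation of these groups is no further result.

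By transport group, the members detected in both undifferentiated groups split as follows. Mitochondrial carriers gave 4 higher and 8 lower of 27 and ion carriers 6 higher and 4 lower of 14. Metal ion carriers gave 6 higher and 2 lower of 16, and carriers of nucleosides, vitamins, lipids and organic ions 7 higher and 6 lower of 20. Of the other amino acid carriers 2 were higher and 1 lower of 10, and of sugar and monocarboxylate carriers 2 were higher and 3 lower of 8. The latter group includes Slc5a6, the multivitamin transporter, by its family number. None of the 5 nucleotide sugar carriers was higher and 3 were lower. Among all genes detected in both groups 29.4% were higher and 27.6% lower, and with so few genes in each group nothing is read from the splits. None of the 3 scaffold and adaptor genes passed in the knockout, although Slc9a3r1, the scaffold NHERF1, rose by 1.54 ± 0.09 in differentiation (adjusted p = 4.08e-08), a gene chosen after its values were seen.

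Other genes of transport and transmitter handling, without an Slc symbol, were followed as a separate list of pumps, partner subunits and carriers that also held the enzymes Abat, Gad1 and Glul and the gap junction protein Gja1. Of the 16 tested in differentiation, whether or not detected in both groups, 10 (62.5%) were higher and 1 (6.25%) lower, beside 29.1% and 28.4% of all genes tested. Abat (1.84), Gad1 (1.15) and Gja1 (1.88 on the log2 scale) are 3 of the 10. Mfsd2a, a lipid transporter, rose by 4.19 ± 0.12 (adjusted p = 1.81e-10), and the sodium pump subunits Atp1b1 and Atp1b2 rose by 3.08 ± 0.12 and 2.81 ± 0.13 (adjusted p = 1.22e-09 and 6.47e-09). In the knockout 4 of 15 (26.7%) were higher and 5 (33.3%) lower, Gad1 and Gja1 among the 5, beside 28.2% and 26.9% of all genes tested. There Atp1b2 fell by 4.01 on the log2 scale (SE 0.13, adjusted p = 1.03e-09), and Atp1b3 rose by 0.63 ± 0.10 (adjusted p = 0.000295).

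Neither microRNA gave a call among the carriers in its own comparison with mock. For let-7, none of the members tested, all but 9 of the 137, passed (limma, smallest adjusted p 0.13, 26 at an unadjusted p under 0.05), beside 0.032% of 9385 genes, which were 3 genes, all higher, with 1731 at an unadjusted p under 0.05. Within hybridization 3 alone, let-7 likewise gave no call among the members. For miR-125, again with all but 9 tested, none passed (smallest adjusted p 0.106, 29 at an unadjusted p under 0.05), beside 0% of 9277 genes, of which 1832 had an unadjusted p under 0.05. The median member differed by 0.03 with let-7 and 0.02 with miR-125. Per the labels, the 3 replicates were separate tamoxifen treatments, and same-numbered arrays were taken as pairs. Within pairs, 35 members were higher and 28 lower in all 3 pairs with let-7 (49.2%, all genes 50.1%), and 36 were higher and 38 lower with miR-125 (57.8%, all genes 54.7%).

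A fit of all 10 arrays with the hybridization and the replicate pair as terms, chosen after the data were seen, gave calls. It counts the mock array of replicate 1 from each hybridization separately, and both could come from 1 RNA. With let-7 it called 7 members higher and 2 lower (7.03%, all genes 7.48%, 4.25% higher and 3.23% lower), and with miR-125 14 higher and 15 lower (22.7%, all genes 18.2%, 8.53% higher and 9.7% lower). The shares were thus close to those of all genes. The replicate pair as a term on the 6 arrays of each comparison alone called no member.

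Slc44a1, the choline transporter, had the largest difference with either microRNA. On the mock arrays it stood at 7.84 in hybridization 2 and at 7.33, 6.78 and 7.18 in hybridization 3. With let-7 it was 9.31, 8.40 and 7.84, and with miR-125 9.13, 8.31 and 7.83, higher in 3 of 3 pairs with each. The differences from mock were 1.25 ± 0.20 (adjusted p = 0.13) and 1.32 ± 0.33 (adjusted p = 0.123) in the 6-array fits, and 1.32 ± 0.22 (adjusted p = 0.0314) and 1.35 ± 0.22 (adjusted p = 0.0151) in the 10-array fit. Slc24a3, the calcium exchanger, stood at 8.48, 8.58, 7.81 and 7.83 on mock arrays, at 9.34, 8.98 and 8.44 with let-7 and at 9.41, 8.32 and 8.29 with miR-125. In the 10-array fit it was higher by 0.92 ± 0.14 with let-7 (adjusted p = 0.0263) and by 0.59 ± 0.14 with miR-125 (adjusted p = 0.0318).

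Other members called higher with both microRNAs in that fit were the carnitine transporter Slc22a5 (0.56 and 0.46), the anion exchanger Slc4a3 (0.47 and 0.35) and the sugar transporter Slc50a1 (0.63 and 0.42). Slc35a4 was called lower with both (-0.60 and -0.49). The let-7 calls also took in the zinc carrier Slc39a3 at 8.23, 7.88 and 6.82 against 7.22, 6.61 and 6.49 on the paired mock arrays (0.90 ± 0.17, adjusted p = 0.0369), and Slc17a5, which carries sialic acid out of lysosomes (0.71 ± 0.16, adjusted p = 0.044). The single further let-7 call was Slc22a23, at 10.94, 11.24 and 11.57 with let-7 and 11.97 to 12.11 on mock arrays, without overlap (-0.78 ± 0.13, adjusted p = 0.0319).

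With miR-125, the sodium-calcium exchanger Slc8a1 stood at 8.03, 8.53 and 8.44 against 8.85, 9.52 and 9.22 on the mock arrays of the same hybridization, lower in 3 of 3 pairs. Its difference was -0.86 ± 0.22 in the 6-array fit (adjusted p = 0.123) and -0.90 ± 0.10 in the 10-array fit (adjusted p = 0.0122). The iron and manganese importer Slc11a2 lay at 7.15, 7.23 and 7.81 against 8.03 to 8.20 (-0.72 ± 0.15 in the 10-array fit, adjusted p = 0.0237). Slc30a10 was 7.80, 6.06 and 5.76 against 8.21, 7.55 and 6.51, lower in every pair although the groups overlap (-0.91 ± 0.20, adjusted p = 0.0276). Among higher members, Slc16a9 lay at a mean of 7.32 ± 0.29 (SD, n = 3) against 6.30 to 6.44 (0.95 ± 0.15, adjusted p = 0.0149), and Slc25a38, a mitochondrial glycine carrier, at 11.76, 11.25 and 11.11 against 10.55 to 10.64 (0.83 ± 0.14, adjusted p = 0.015).

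Of the 7 transporters of glutamate, GABA and glycine, 5 were tested with let-7 and 4 with miR-125 in the 6-array fits, and none passed. Slc1a3 lay at 13.71 to 14.56 on mock arrays, 13.66 to 14.56 with let-7 and 13.66 to 14.13 with miR-125, and its differences were -0.05 ± 0.11 (adjusted p = 0.844) and -0.03 ± 0.18 (adjusted p = 0.945). Slc6a9 differed by -0.10 ± 0.19 with let-7 (adjusted p = 0.817). With miR-125 it lay at 9.93 to 10.18 against 9.45 to 9.74 (0.45 ± 0.14, adjusted p = 0.152). Slc6a11 ranged from 5.26 to 7.06 on mock arrays, and the let-7 (5.19 to 7.06) and miR-125 (5.44 to 7.34) arrays overlapped that range. Slc1a2 was at 4.95 to 5.90 on mock arrays, 5.31 to 5.68 with let-7 and 4.91 to 5.22 with miR-125. It was not above background on any miR-125 array and was not tested there. Slc1a1 lay between 4.49 and 5.15 on all 10 arrays. Neither Slc1a1 nor Slc6a13 was above background on any of these arrays, and both were left untested. Slc1a6 was called in the 10-array fit with miR-125 (-0.52 ± 0.13, adjusted p = 0.0335) and not in the 6-array fit (adjusted p = 0.282). It lay at 5.41 to 6.17 with miR-125, where 2 of 3 arrays were above background, and at 6.10 to 6.64 on mock arrays, with overlap.

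**Figure D4:**
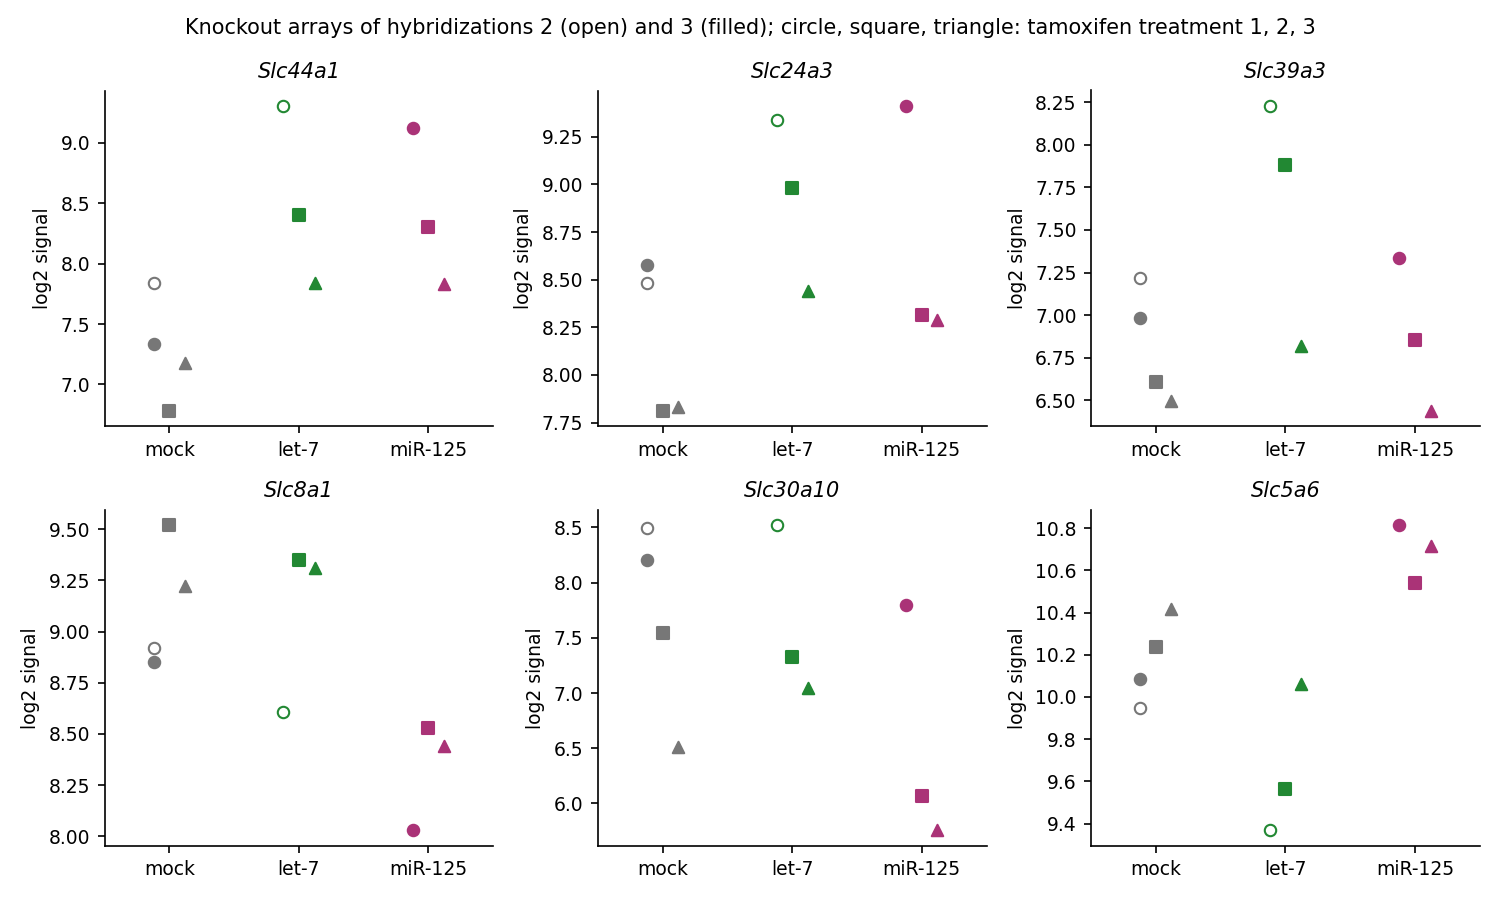
Log2 signal (y axis) of 6 members on the knockout arrays of hybridizations 2 (open) and 3 (filled) by treatment (x axis). Each point is 1 array and its shape gives the tamoxifen treatment. Slc44a1 is higher than its paired mock array with both microRNAs in every treatment, Slc8a1 and Slc30a10 are lower with miR-125, and Slc5a6 lies at 9.37 to 10.06 with let-7 and 10.54 to 10.81 with miR-125.

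The knockout and the microRNA comparisons share no arrays. The knockout calls counted here include members that did not meet the detection rule in both groups, such as Slc44a1 and Slc30a10. For these members the rule itself partly fixed the knockout call. Of 36 members lower in the knockout, 4 were called higher with let-7 in the 10-array fit (11.1%, all genes lower in the knockout 9.8%), namely Slc17a5, Slc44a1, Slc24a3 and Slc39a3. With miR-125 it was 7 of 36 (19.4%, all genes 18.3%), among them Slc44a1 and Slc24a3. Of 33 members higher in the knockout, 1 was called lower with let-7, Slc22a23 (3.03%, all genes 7.25%), and 6 with miR-125 (18.2%, all genes 15.2%), among them Slc6a6 and Slc8a1. These shares were close to those of all genes, apart from the single gene with let-7. Another 4 of the 36 were called lower again with miR-125 (11.1%, all genes 5.52%), Slc2a8, Slc35a4, Slc30a10 and Slc25a16. The taurine transporter Slc6a6, the member with the largest rise in the knockout, differed by -0.40 ± 0.10 with miR-125 in that fit (adjusted p = 0.0399). Its differences in the 6-array fits were -0.29 ± 0.19 with let-7 and -0.38 ± 0.18 with miR-125 (adjusted p = 0.457 and 0.307).

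**Figure D5:**
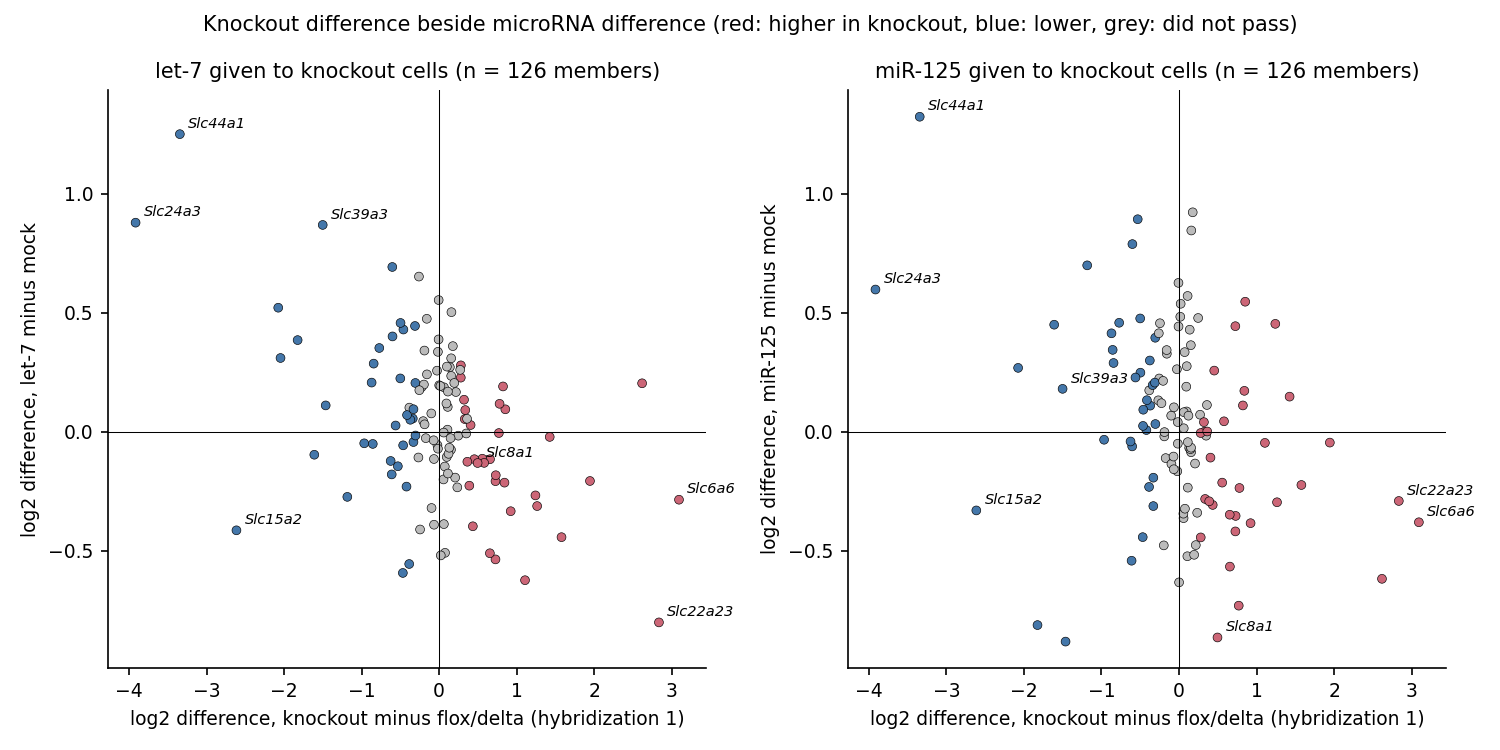
Log2 difference of knockout minus flox/delta cells (x axis) beside the 6-array log2 difference of let-7 (left) or miR-125 (right) minus mock (y axis) for the members tested in both, all but 11 of the 137. Points are genes, coloured by their knockout call. Slc44a1 and Slc24a3 lie at the upper left on both panels, and Slc15a2, also lower in the knockout, lies below 0 on both.

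Set directly against each other, let-7 and miR-125 differed for 2 of the members tested, all but 9 of the 137, beside 1.37% of 9377 genes (0.587% higher and 0.779% lower with let-7). Slc5a6, the sodium-dependent multivitamin transporter, lay at 9.37, 9.56 and 10.06 with let-7 and at 10.81, 10.54 and 10.72 with miR-125, while the mock arrays lay at 9.95 to 10.42. It was lower with let-7 by 0.90 on the log2 scale (-0.90 ± 0.17, adjusted p = 0.0422). Slc25a44, a mitochondrial carrier of branched-chain amino acids, lay at 10.14, 9.65 and 9.46 with let-7 and at 8.89, 8.91 and 9.10 with miR-125 (0.63 ± 0.12, adjusted p = 0.0495). Neither gene overlaps between the treatments.

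Both calls lay near the threshold. Slc25a44 passed in no fit that left out 1 let-7 or miR-125 array (adjusted p 0.0556 to 0.247), and Slc5a6 in no such fit except that without let-7 replicate 3. Within hybridization 3 their adjusted p-values were 0.282 and 0.267. With the replicate pair as a block, 7 members were higher with let-7 and 5 lower (all genes 6.38%, 3.48% higher and 2.9% lower). The higher ones were Slc4a8, Slc35a1, Slc25a15, Slc25a44, Slc8a1, Slc30a10 and Slc25a39, and the lower ones Slc25a14, Slc5a6, Slc19a2, Slc14a2 and Slc9a3r2. The summed level of 5 fibroblast and smooth muscle markers was 9.82 to 11.6 on mock, 8.22 to 10.7 on let-7 and 12.01 to 12.85 on miR-125 arrays, with 1 of the 5 above background on all arrays of each group, and its part in these differences was not tested.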

How the data were processed

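Total RNA was measured on 19 Illumina arrays, listed as 24 sample entries because 5 arrays were entered again. Per the file headers, the deposited non-normalized table holds 25697 probes, with an intensity per array and a p-value of detection beside it. The authors' deposited normalized tables hold linear intensity (differentiation, knockout) or log2 signal (let-7, miR-125), as their values show. The submitters' processing notes name limma but no version of it. Of the probes 23978 had a symbol and 1719 had none. The deposited normalized tables number 2 groups' replicates 1 and 3 the other way round, and those of the non-normalized table were kept.

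Members and gene lists were chosen with earlier results of these data known. Signals were corrected and quantile normalized with neqc (limma 3.58.1, R 4.3.3, offset 16), with negative controls inferred from the detection p-values. Probes above background (detection p under 0.05) on 3 or more of the compared arrays were tested. Differences were fitted with limma over all genes (two-sided, Benjamini-Hochberg, threshold 0.05), and all values are log2 signals or log2 differences ± SE. The 3 groups of hybridization 1 shared 1 fit. The let-7 fit used 6 arrays with a hybridization term and left out mock replicate 1 of hybridization 3, miR-125 used 6 arrays of hybridization 3, and the direct contrast used all 10 with the term. A bound ("at least") compares the brighter group's mean with the background level of the dimmer group. Genes named were, per comparison, the 10 members with the largest called differences in each direction, the transporters of glutamate, GABA and glycine, and Slc3a2 and Slc7a5. The let-7 and miR-125 comparisons had no calls. Further genes named there were taken outside this rule from the calls of the 10-array fit, after the data were seen. For miR-125 not all of those calls are named, and Slc14a2 (0.90 ± 0.11, limma adjusted p = 0.0123) is one left out. Transport groups mostly follow family numbers, so all Slc25 members count as mitochondrial whatever their membrane. The Slc66 genes are in no transport group. The number of arrays limits the precision. The fits were tested on simulated data.

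Per the labels, replicate numbers of the let-7 and miR-125 groups mark separate tamoxifen treatments. Deviations of same-numbered arrays correlated at 0.69 to 0.878 (let-7), 0.419 to 0.597 (miR-125) and 0.331 to 0.426 (let-7 with miR-125), so the numbers pair the arrays there.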

Additional observations from a re-analysis of the deposited data

Results flagged for a closer look

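Slc25a44, 1 of 11 members looked at on the mock arrays in this way, had a log2 signal of 9.78 on mock replicate 1 of hybridization 2, while the other mock arrays lay at 9.42 to 9.46. Its gap to the nearest array was 0.886 of the range, above Dixon's critical value for 4 arrays. Chance marks about 1 in 20 such groups, and this array is the only mock array of its hybridization.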

How the results depend on the processing

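Counts here run over all members tested, including those that entered through 1 group (59 higher and 27 lower in differentiation, 34 and 39 in the knockout). The largest moves in these 2 comparisons came under normexp with median scaling, with 15 lower in differentiation and 26 lower in the knockout, and the other settings moved them by less than 1.5 times. Leaving out 1 array at a time gave 47 to 58 higher and 21 to 27 lower in differentiation, 27 to 34 and 31 to 39 in the knockout, and 0 of either with let-7 or miR-125. The replicate numbers of hybridization 1 did not pair the arrays (correlations -0.0809 to 0.207 in differentiation and 0.0984 to 0.249 in the knockout). With a replicate block there, 58 were higher and 27 lower in differentiation (63.9%, all genes 58.1%) and 35 and 41 in the knockout (58.5%, all genes 56.1%). The same block gave 0 and 0 with let-7 and with miR-125 alone. It moved the direct contrast from 1 and 1 (1.56%, all genes 1.37%) to 7 and 5 (9.38%, all genes 6.38%). In all 10 arrays with the hybridization term, miR-125 gave 3 higher and 2 lower (3.91%, all genes 4.34%). With the replicate block added, miR-125 gave 14 and 15 (22.7%, all genes 18.2%) and let-7 7 and 2 (7.03%, all genes 7.48%). The authors' deposited table gave 2 higher and 1 lower with let-7 (2.34%, all genes 2.72%). For let-7 against miR-125, no detection filter gave 0 and 0, and hybridization 3 alone 0 and 0. The stricter detection filter gave 4 higher and 1 lower (4.13%, all genes 3.11%), and median scaling 1 higher and 0 lower (0.781%, all genes 1.22%). Leaving out 1 array gave 0 to 2 higher and 0 to 1 lower. The cause of these moves was not tested.

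Uncalled log2 differences changed sign for 7 members. In differentiation, leaving out 1 array gave Slc1a6 -0.030 to 0.35. In the knockout it gave Slc1a6 -0.071 to 0.32 and Slc7a5 -0.094 to 0.014, and median scaling gave Slc7a5 0.034. With let-7 the ranges were -0.045 to 0.063 for Slc1a6, -0.35 to 0.028 for Slc6a9, -0.52 to 0.52 for Slc6a11 and -0.20 to 0.24 for Slc3a2. Within hybridization 3, Slc1a2 was -0.062 and Slc1a6 -0.15, Slc1a6 was -0.10 in all 10 arrays, and Slc6a11 was 0.057 with the replicate block added. With miR-125 they were -0.18 to 0.082 for Slc1a3, -0.13 to 0.91 for Slc6a11 and -0.076 to 0.53 for Slc7a5. For let-7 against miR-125 they were -0.21 to 0.024 for Slc1a3, -1.08 to 0.076 for Slc6a11, -0.35 to 0.18 for Slc3a2 and -0.042 to 0.40 for Slc7a5. There Slc3a2 was 0.022 within hybridization 3 and Slc7a5 -0.018 with the replicate block. The cause of these changes of sign was not tested.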
